A study of Mus musculus with 7 samples.

Results

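Heat shock chaperone genes were followed as a set of 8 listed members, of which 7 were measured among the 11751 named genes of the experiment that compared tumour and blood cells, here experiment (ii). The members are rows with listed symbols, and the list was drawn up with earlier results of these data known. They comprise 5 genes counted as inducible by stress (Hspa1a, Hspa1b, Dnajb1, Hspb1 and Hsp90aa1), 2 counted as constitutive (Hspa8 and Hsp90ab1), and Hspa5 of the endoplasmic reticulum. Hspa5 was analysed in experiment (i) alone.

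Chaperones bind unfolded stretches of other proteins and keep them from clumping until they fold. Under heat or other protein damage, heat shock factor 1 (HSF1) binds repeated GAA units in promoters and raises transcription of the inducible chaperones, while the constitutive members serve folding in unstressed cells. Tissue dissociation and cell sorting are themselves known to raise stress genes in many cell types, and tumour cells are known for their use of HSP90 and HSP70 proteins.

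The libraries were made by CEL-seq, in which RNA of single wells is barcoded by well and by molecule and 3′ ends are read. Cells came from mammary tumours or blood of mice labelled PyMT, the polyoma middle T model of breast cancer, in which a viral oncogene drives tumours. Experiment (ii) held 4 sorted populations: BEneg and BEpos, labelled circulating tumour cells negative and positive for E-cadherin (Ecad), and TEneg and TEpos, labelled solid tumour cells negative and positive for Ecad. All groups thus shared the PyMT background. Age, strain, promoter and the number of animals are not given in the labels, and no untreated or heat-shocked sample was analysed. Experiment (i) held Ecad-positive tumour cells in 3 libraries.

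Of 312 wells in experiment (ii), 220 had at least 500 transcripts and were used, namely 60 BEneg, 20 BEpos, 69 TEneg and 71 TEpos wells. Summed transcripts per library were 11172 to 25379 in BEneg, 17189 to 109892 in TEneg and 27416 to 71894 in TEpos, in 4 libraries each, and were 75125 in the 1 library of BEpos. A single TEneg well of library 2 held 61227 transcripts, 55.7% of its sum. The labels were checked against marker genes. A list of 15 immune genes took 5.62 to 11.4% of BEneg transcripts (12 to 13 of 15 genes detected), 3.04% in BEpos, 0.108 to 0.492% in TEneg and 0.203 to 0.416% in TEpos. The leukocyte gene Ptprc had 0, 0, 0 and 1 transcripts in the BEneg libraries. Epithelial markers (8 genes) took 0.0571 to 0.135% in BEneg, 0.00934% in BEpos, 0.181 to 0.392% in TEneg and 0.413 to 0.679% in TEpos. Cdh1, which encodes Ecad, did not follow the sort labels. It had 1 transcript in BEpos (0.133 per 10000) and 2.04, 3.96, 5.91 and 3.59 per 10000 in BEneg, against 5.12, 6.39, 2.20 and 2.92 in TEneg and 3.37, 3.64, 10.7 and 5.86 in TEpos, so TEneg was above TEpos in libraries 1 and 2. In experiment (i), library 2 stood apart from library 1, with a basal marker share of 0.627% against 0.0115% and an immune share of 0.528% against 0.0213%, and library 3 had 1 usable well.

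Promoters of 3 inducible members are shown, those in which a motif of the kind that HSF1 binds was found. The sequences are RefSeq windows on GRCm38.p6 (mm10), the 250 bases before the annotated start, and 5 of the 8 members matched a window. Capitals mark a pair of facing GAA units, GAANNTTC. The window of Hspa1a is chr17:34972157-34972406, that of Hspa1b chr17:34959239-34959488 (both minus strand) and that of Hspb1 chr5:135887669-135887918 (plus strand).
Hspa1a: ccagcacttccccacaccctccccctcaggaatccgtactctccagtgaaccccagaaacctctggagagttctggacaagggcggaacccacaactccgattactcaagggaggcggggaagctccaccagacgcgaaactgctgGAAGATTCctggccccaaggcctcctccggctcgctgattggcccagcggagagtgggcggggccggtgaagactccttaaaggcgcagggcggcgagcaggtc
Hspa1b: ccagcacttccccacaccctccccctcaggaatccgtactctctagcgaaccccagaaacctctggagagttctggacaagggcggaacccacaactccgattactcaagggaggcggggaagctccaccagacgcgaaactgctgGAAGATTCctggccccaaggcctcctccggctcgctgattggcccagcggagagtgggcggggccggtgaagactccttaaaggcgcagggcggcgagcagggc
Hspb1: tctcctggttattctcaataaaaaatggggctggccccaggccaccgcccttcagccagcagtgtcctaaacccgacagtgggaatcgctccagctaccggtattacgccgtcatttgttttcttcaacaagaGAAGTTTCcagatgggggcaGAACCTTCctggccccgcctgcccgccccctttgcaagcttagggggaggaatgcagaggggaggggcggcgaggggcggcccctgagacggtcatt
Hspa1a and Hspa1b, neighbouring HSP70 genes, differed at 3 of 250 positions (C44T, T47C and T249G, Hspa1a base first, counted from 1 at the 5′ end of the window). Each held 1 match, bases 104 to 97 before the start. Hspb1 held 2 matches, at bases 117 to 110 and 97 to 90 before the start. Windows of Dnajb1 (2 starts) and Hspa5 held no match in these letters. The other facing order, TTCNNGAA, was found in none of the members' windows. Both motifs read the same on either strand. Over 32851 RefSeq windows of the same length, 6.69% held GAANNTTC, 7.17% held TTCNNGAA and 12.8% held either. A match describes letters only.

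In the blood-sorted BEneg wells, Hspa1b, Hspb1, Hsp90aa1 and Hsp90ab1 were lower than in both solid tumour populations, while no tested member was called between TEneg and TEpos. The sums per library and population of BEneg, TEneg and TEpos were fitted together over 490 genes with edgeR's quasi-likelihood test, with library as a block, and a gene was called at a Benjamini-Hochberg adjusted p under 0.05. Of the 7 members in the table, 5 passed the filter on low counts and were tested. Members that passed through their level in tumour cells are a selected part of the list, so their counts describe them only. Hspa1a and Dnajb1 did not pass it. Levels are given as transcripts per 10000 of all transcripts in a sum. CEL-seq counts one 3′ end per molecule, so these levels are not scaled by transcript length. The test's own scaling differed from this, with TMM factors of 0.760 to 0.997 in BEneg, 1.09 to 1.14 in TEneg and 1.07 to 1.09 in TEpos. Overlaps between groups and counts of libraries with a lower or higher level use levels per 10000 and may differ under the test's scaling. How many of all genes lacked overlap was not counted, so a lack of overlap describes the member only.

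**Figure D1:**
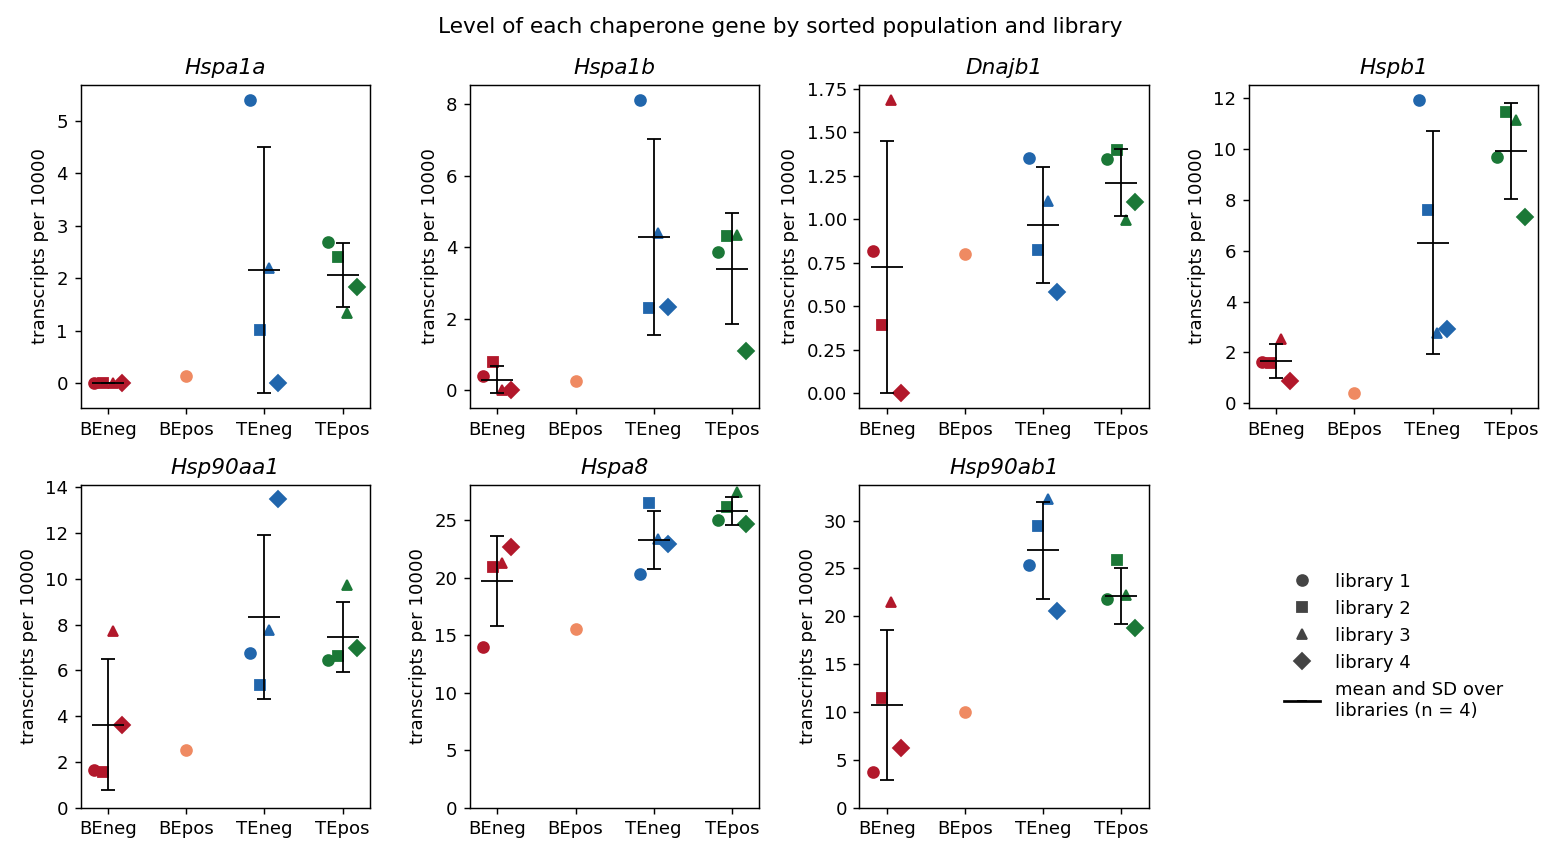
Level of each of the 7 members in experiment (ii), in transcripts per 10000 (y axis, a separate scale per gene), by population (x axis). Each point is the sum over used wells of a library, and black bars give the mean and SD of 4 libraries. Hspa1a was at 0 in all BEneg libraries, and the 4 BEneg values of Hspb1, up to 2.53, lay below every TEneg and TEpos value.

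For BEneg against TEneg, 4 of the 5 tested members fell and none rose, where 17.1% of all 490 genes fell, 23.9% rose and 41% changed in either direction. For BEneg against TEpos 4 of the 5 again fell and none rose, where 21% of all genes fell, 27.1% rose and 48.2% changed. The median log2 fold change of the 5 members was −1.30 against TEneg and −0.97 against TEpos, and that of all tested genes −0.051 and −0.078. Genes called higher and lower in BEneg numbered 117 and 84 against TEneg, and 133 and 103 against TEpos. Scaled by total transcripts alone they numbered 99 and 187 against TEneg and 110 and 188 against TEpos, and the median over all genes then lay at −0.49 and −0.48. The 4 members kept their direction under that scaling. Without library 1, 2 members were called in each comparison (Hspb1 and Hsp90ab1 against TEneg, Hspa1b and Hspb1 against TEpos). The immune share given above was higher in BEneg than in both tumour populations in 4 of 4 libraries and the epithelial share lower, and their part in these differences was not tested.

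Among the inducible members, the HSP70 genes were rare in blood. Hspa1a (chr17:34969190-34972156) had 0 transcripts in all 4 BEneg libraries, against 20, 11, 4 and 0 in TEneg and 16, 17, 4 and 5 in TEpos. Over the population that is 0 of 72985 transcripts in BEneg. With 3 transcripts taken as the BEneg limit, the pooled level of Hspa1a was 4.66-fold that limit in TEneg and 5.40-fold in TEpos. These folds take the tumour counts as exact and leave out the spread over libraries. The BEneg and TEneg libraries overlapped at 0, and the BEneg and TEpos libraries did not overlap.

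Hspa1b (chr17:34956436-34959238), which encodes the same kind of HSP70 protein, had 0.408, 0.790, 0 and 0 transcripts per 10000 in BEneg libraries 1 to 4. In TEneg it had 8.13, 2.31, 4.41 and 2.33, and in TEpos 3.88, 4.31, 4.34 and 1.10. On this scale, which is not that of the test, every BEneg value lay below every tumour value. The log2 fold change of BEneg over TEneg was −3.07 (SE 0.75, edgeR adjusted p = 0.00143) and that of BEneg over TEpos −2.79 (SE 0.76, edgeR adjusted p = 0.00327), lower in 4 of 4 libraries each. These rest on 3 BEneg transcripts. Without library 1, the value against TEneg was −2.55 (edgeR adjusted p = 0.0578), and over the 13 alternatives in which it was tested the adjusted p ran from 0.000201 to 0.0578.

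Reads that fit both copies may have been split, since no source used here gives the counting rule. Over whole annotated transcripts, 52.7% of 75-base stretches of Hspa1a also occurred in Hspa1b, but 0 of the 426 stretches in the last 500 bases, the end that CEL-seq reads. Summed as 1 gene, an alternative chosen after the data were seen, the pair had 0.408, 0.790, 0 and 0 per 10000 in BEneg. In TEneg the sum was 13.5, 3.32, 6.61 and 2.33, and in TEpos 6.58, 6.70, 5.67 and 2.93. The log2 fold change of the sum was −3.66 (SE 0.67, edgeR adjusted p = 5.54e-05) for BEneg over TEneg and −3.50 (SE 0.67, edgeR adjusted p = 8.47e-05) for BEneg over TEpos.

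Hspb1 (chr5:135887919-135889563), a small heat shock protein that holds unfolded proteins and binds actin, had 1.63, 1.58, 2.53 and 0.897 transcripts per 10000 in BEneg libraries 1 to 4. TEneg had 11.9, 7.61, 2.75 and 2.92, and TEpos 9.68, 11.5, 11.1 and 7.32. On this scale, which is not that of the test, the groups did not overlap. TEneg libraries 3 and 4 came close to the highest BEneg value. Hspb1 fell by 1.86 on the log2 scale in BEneg against TEneg (SE 0.44, edgeR adjusted p = 0.00110) and by 2.35 against TEpos (SE 0.42, edgeR adjusted p = 3.95e-05). Its level per 10000 was lower in 4 of 4 libraries each. It stayed called under all 15 alternatives run for each comparison.

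Hsp90aa1 (chr12:110690605-110702728) encodes the stress-inducible cytosolic HSP90. Its levels were 1.63, 1.58, 7.71 and 3.60 per 10000 in BEneg, 6.74, 5.34, 7.75 and 13.5 in TEneg, and 6.46, 6.65, 9.72 and 6.96 in TEpos. Library 3 of BEneg lay within the tumour range, and all 9 of its Hsp90aa1 transcripts came from 1 well. The log2 fold change was −1.17 against TEneg (SE 0.37, edgeR adjusted p = 0.0117) and −0.97 against TEpos (SE 0.37, edgeR adjusted p = 0.0288). Levels per 10000 were lower in 4 of 4 libraries each, though library 3 was close, at 7.71 in BEneg and 7.75 in TEneg. The call against TEneg was lost without library 1 (−1.02, adjusted p = 0.0850), library 2 (−1.02, 0.0888) or library 4 (−0.95, 0.0862). The call against TEpos was lost without library 1 (−0.81, adjusted p = 0.159), library 2 (−0.65, 0.269) or library 4 (−0.95, 0.0715), and without the library block (−0.94, 0.0872). In all, the call was lost in 4 of 15 alternatives against TEneg and in 6 against TEpos. Beyond those named, these were wells of at least 1000 transcripts in both comparisons and DESeq2 against TEpos. Over all 15 alternatives the adjusted p ran from 0.000364 to 0.124 against TEneg and from 0.000857 to 0.269 against TEpos.

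Dnajb1 (chr8:83608193-83612653), the J-domain partner that hands substrates to HSP70, had 2, 1, 2 and 0 transcripts in BEneg libraries 1 to 4. It had 5, 9, 2 and 1 in TEneg and 8, 10, 3 and 3 in TEpos. Its levels averaged 0.725 ± 0.723 per 10000 in BEneg, 0.964 ± 0.333 in TEneg and 1.21 ± 0.192 in TEpos (SD, n = 4), and the groups overlapped. No difference was detectable at this depth: the ratio of summed transcripts of BEneg over TEpos was 0.540, with a 95% interval from 0.161 to 1.44 that covers counting error only.

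Of the constitutive members, Hsp90ab1 was called lower in BEneg and Hspa8 was not, and the difference between both was not tested. Hspa8 (chr9:40800984-40810087), the HSP70 protein of unstressed cells, had 13.98, 20.9, 21.3 and 22.7 transcripts per 10000 in BEneg, 20.4, 26.5, 23.4 and 22.97 in TEneg, and 25.01, 26.1, 27.4 and 24.7 in TEpos. BEneg and TEneg overlapped, and each BEneg value lay below every TEpos value on this scale. The test did not call it: the log2 fold change was −0.11 for BEneg over TEneg (SE 0.17, edgeR adjusted p = 0.648) and −0.13 for BEneg over TEpos (SE 0.17, edgeR adjusted p = 0.573). Scaled by total transcripts alone, Hspa8 was called at −0.55 (edgeR adjusted p = 0.0115) against TEneg and −0.53 (edgeR adjusted p = 0.0113) against TEpos, close to the median over all genes under that scaling. Its adjusted p over the 15 alternatives ran from 0.0115 to 0.972 and from 0.0113 to 0.961.

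Hsp90ab1 (chr17:45567775-45573271), the constitutive cytosolic HSP90, had 3.68, 11.5, 21.5 and 6.28 per 10000 in BEneg, 25.3, 29.4, 32.3 and 20.6 in TEneg, and 21.8, 25.9, 22.2 and 18.7 in TEpos. BEneg library 3 lay within the tumour range and the other 3 BEneg libraries below it. In that library 15 of 25 transcripts came from 1 well. Hsp90ab1 fell by 1.30 on the log2 scale against TEneg (SE 0.24, edgeR adjusted p = 5.61e-05) and by 0.92 against TEpos (SE 0.24, edgeR adjusted p = 0.00220). Levels per 10000 were lower in 4 of 4 libraries each, though library 3 was close, at 21.5 in BEneg and 22.2 in TEpos. Without library 1 the value against TEpos was −0.59 (edgeR adjusted p = 0.0504), and over the 15 alternatives its adjusted p ran from 5.11e-07 to 0.0504.

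**Figure D2:**
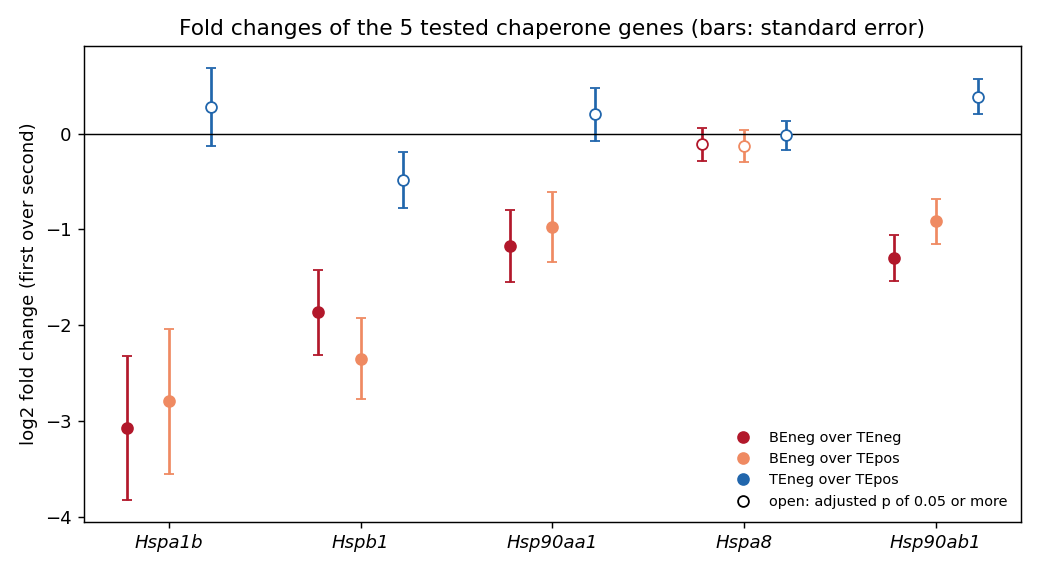
Log2 fold change (y axis, first population over second) of the 5 tested members (x axis) in the 3 comparisons, with bars of 1 standard error from edgeR and open points where the adjusted p was 0.05 or more. Hspb1 lay at −1.86 and −2.35 in the BEneg comparisons, and Hspa8 near 0 in all 3.

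Between the solid tumour populations, the comparison asks what distinguishes Ecad-negative from Ecad-positive cells. None of the 5 tested members was called by edgeR, where 6.33% of all 490 genes were (23 higher, 4.69%, and 8 lower, 1.63%). At an unadjusted p under 0.05 there was 1 member, Hsp90ab1, of 88 genes. DESeq2 called 0 members. The log2 fold change of Hsp90ab1 was 0.38 (SE 0.19, edgeR adjusted p = 0.277), and all 4 libraries had the higher level in TEneg. Hspb1 was at −0.48 (SE 0.29, edgeR adjusted p = 0.395), lower in TEneg in 3 of 4. Hspa1b was at 0.28 (SE 0.41), Hsp90aa1 at 0.20 (SE 0.27) and Hspa8 at −0.016 (SE 0.15), with edgeR adjusted p from 0.732 to 0.974. These 3 changed sign under some alternatives. The median of the 5 was 0.20, and that of all genes −0.0090. The count of 31 genes over the whole table was 19 without library 1 and 55 without the large well of library 2, and no member was called in either. Endothelial and basal markers were higher in TEneg, at 0.0233 to 0.0937% against 0.00139 to 0.0233% in TEpos and 0.104 to 0.972% against 0.0168 to 0.0433%. Leaving out the 32 of 69 TEneg wells whose share of endothelial, basal or immune markers lay above every TEpos well also left 0 members called.

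The spread over libraries was wide in TEneg. The pair Hspa1a and Hspa1b averaged 6.45 ± 5.07 per 10000 in TEneg and 5.47 ± 1.76 in TEpos (SD, n = 4), with TEneg library 1 at 13.5 and TEneg library 4 at 2.33. Hspb1 averaged 6.30 ± 4.38 in TEneg and 9.90 ± 1.89 in TEpos. Library 1 held the highest TEneg value of Hspa1a, Hspa1b and Hspb1, as well as of Dnajb1, and library 4 that of Hsp90aa1.

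Inducible and constitutive members were then summed within each library, as a description with no test. The 5 inducible genes together had 4.49, 4.34, 11.9 and 4.49 transcripts per 10000 in BEneg libraries 1 to 4, 33.6, 17.1, 18.2 and 19.3 in TEneg, and 24.1, 26.2, 27.5 and 18.3 in TEpos. No BEneg library reached the tumour range on this scale, on which the median over all genes was also lower in BEneg. Hspa8 and Hsp90ab1 together had 17.7, 32.4, 42.7 and 28.97 in BEneg, 45.7, 55.9, 55.6 and 43.5 in TEneg, and 46.8, 52.01, 49.7 and 43.4 in TEpos. The log2 ratio of inducible to constitutive transcripts (0.5 transcripts added to each sum) was −1.93, −2.84, −1.80 and −2.57 in BEneg, a mean of −2.29 ± 0.50. In TEneg it was −0.44, −1.71, −1.60 and −1.16 (mean −1.23 ± 0.57), and in TEpos −0.96, −0.99, −0.85 and −1.24 (mean −1.01 ± 0.16; SD, n = 4). The BEneg values lay below all tumour values, the closest being −1.80 in BEneg library 3 and −1.71 in TEneg library 2. TEneg and TEpos overlapped. The separation from TEneg depended on how the ratio was made, and BEneg overlapped TEneg under 6 of the other 8 ways of choosing genes, wells or pseudocount. With Hsp90aa1 counted as constitutive, BEneg libraries ran up to −2.67 (mean −3.57), TEneg down to −3.23 (mean −2.28) and TEpos down to −2.13 (mean −1.76). With Hspb1 left out, BEneg ran up to −2.14, TEneg down to −2.55 and TEpos down to −1.96. The 4 BEneg ratios stayed below every TEpos ratio under all 8.

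**Figure D3:**
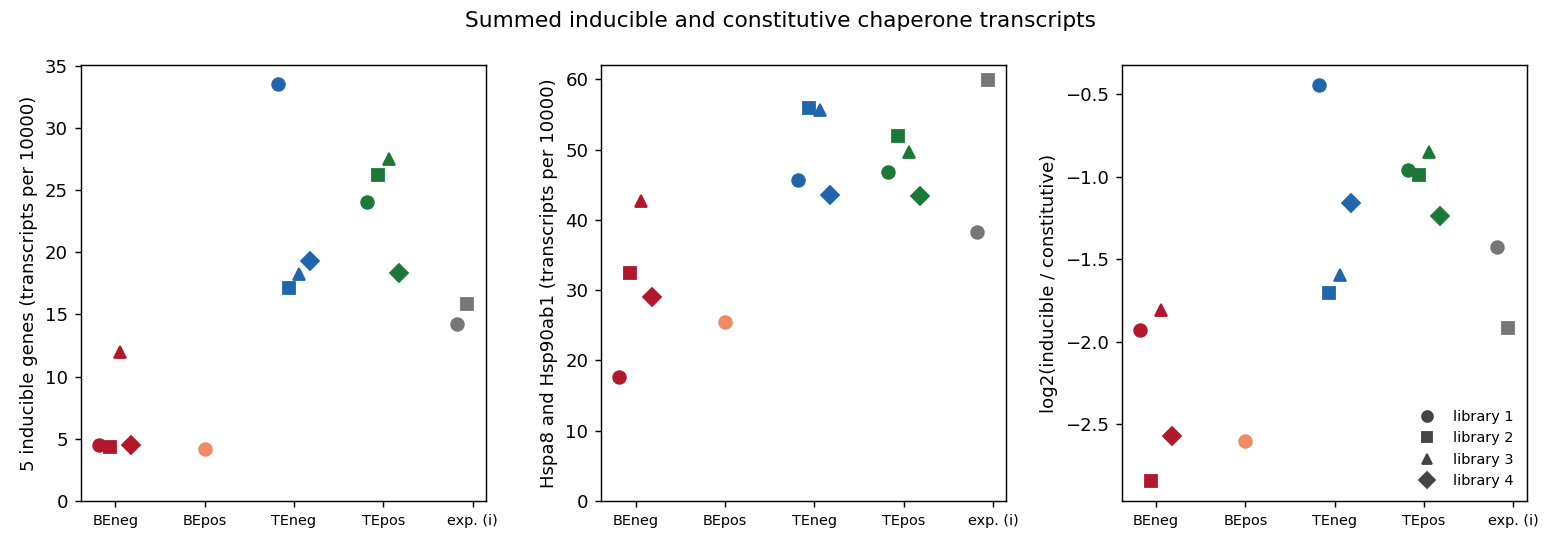
Summed transcripts per 10000 of the 5 inducible genes (left) and of Hspa8 and Hsp90ab1 (middle), and the log2 ratio of both sums (right), by population. Each point is 1 library. The 4 BEneg ratios, from −2.84 to −1.80, lay below those of TEneg and TEpos.

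BEpos was present in library 1 alone, so it carries no test. It had 1 transcript of Hspa1a, 2 of Hspa1b, 6 of Dnajb1, 3 of Hspb1, 19 of Hsp90aa1, 117 of Hspa8 and 75 of Hsp90ab1. Hspb1 was at 0.400 per 10000 in BEpos (exact Poisson 95% interval 0.0824 to 1.17, counting error only), against 9.68 in TEpos of the same library. Over all libraries of TEpos, the ratio of BEpos over TEpos was 0.0389 for Hspb1 (95% interval 0.00796 to 0.115) and 0.0674 for the HSP70 pair (0.0137 to 0.202). Hspa8 was at 15.5 (12.9 to 18.7) against 25.01, and Hsp90ab1 at 9.95 (7.85 to 12.5) against 21.8. The inducible sum was 4.14 per 10000, below the lowest BEneg library at 4.34, and the log2 ratio was −2.60, inside the BEneg range. Of the 15 immune genes, 14 had a transcript in these wells. The most frequent were S100a9 with 752, S100a8 with 582, Cd52 with 222, Rac2 with 123 and Tyrobp with 102. Cd79a had 56, Cd3e 13 and Ptprc 0. The part of immune genes in the chaperone levels was not tested.

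Well by well, the inducible genes were sparse. Hspa1a or Hspa1b was found in 3 of 60 BEneg wells (5.0%, exact Clopper-Pearson 95% interval 1.04 to 13.9%), 3 of 20 BEpos wells, 35 of 69 TEneg wells (50.7%, 38.4 to 62.98%) and 30 of 71 TEpos wells (42.3%, 30.6 to 54.6%). Hspa1a was found in 0 of 60 BEneg wells, which allows a share of up to 5.0%; this limits wells with a transcript at the BEneg depth, in counting error only, and not cells expressing the gene. Both genes of the pair were found together in 0 BEneg, 0 BEpos, 10 TEneg and 13 TEpos wells. Used wells had medians of 819 transcripts in BEneg, 3803 in BEpos, 1603 in TEneg and 2064 in TEpos, so shares were also computed for each well thinned to 500 transcripts.

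Thinned, a transcript of the pair was expected in 1.45 ± 2.35% of BEneg, 2.89% of BEpos, 23.4 ± 12.7% of TEneg and 17.4 ± 6.13% of TEpos wells (mean ± SD over 4 libraries; 1 library in BEpos). Hspb1 was at 7.74 ± 2.86% in BEneg, 1.77% in BEpos, 22.6 ± 12.1% in TEneg and 36.7 ± 7.17% in TEpos. Hspa8 was at 52.4 ± 12.8%, 55.2%, 64.8 ± 5.60% and 72.5 ± 2.85% in BEneg, BEpos, TEneg and TEpos. Hsp90ab1 was at 34.4 ± 16.1% in BEneg, 38.8% in BEpos, 69.4 ± 13.4% in TEneg and 66.2 ± 1.34% in TEpos. Dnajb1, at 2.95 ± 2.996% in BEneg, 3.64% in BEpos, 3.24 ± 1.42% in TEneg and 6.04 ± 1.20% in TEpos, was rare in every population.

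**Figure D4:**
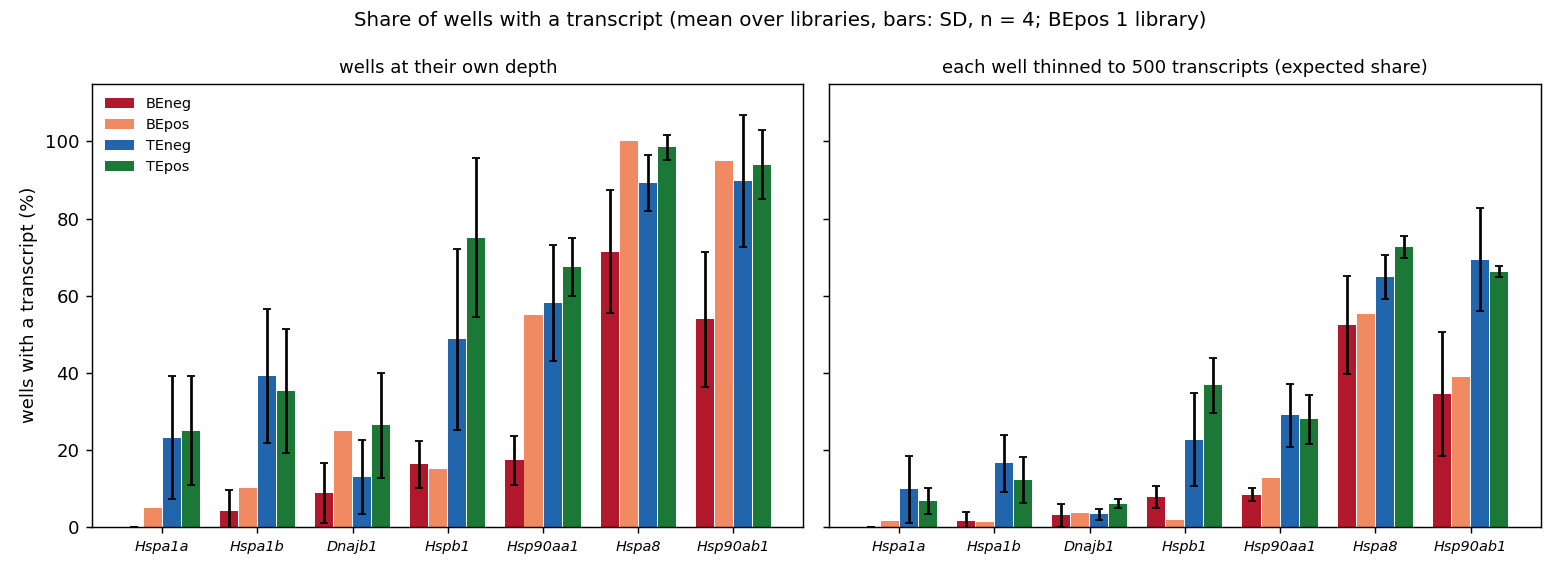
Share of wells with at least 1 transcript (y axis, percent) of each member (x axis) in the 4 populations, at the wells' own depth (left) and as the expected share after thinning to 500 transcripts (right). Bars are means over libraries with SD (n = 4), and BEpos is 1 library. Hspa8 was at 52.4% of thinned BEneg wells, where Hspb1 was at 7.74%.

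A few wells carried much of the HSP70 pair. One TEpos well of library 2 held 32 of the 48 pair transcripts of its sum (66.7%) among 16913 transcripts, and the large TEneg well of library 2 held 20 of 61227. In TEneg library 1, wells of 3122 and 2841 transcripts held 14 and 10. The first of these had 0 Hsp90aa1 and 2 Hsp90ab1 transcripts and the second 1 and 4. The TEpos well with 32 had 18 of Hsp90aa1 and 64 of Hsp90ab1, and the large TEneg well 29 and 192. The pair did not keep 1 proportion to HSP90 transcripts over these 4 wells. They were picked for their pair counts, which favours a high proportion, so the values describe these wells only. No BEneg or BEpos well held more than 1 transcript of the pair.

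**Figure D5:**
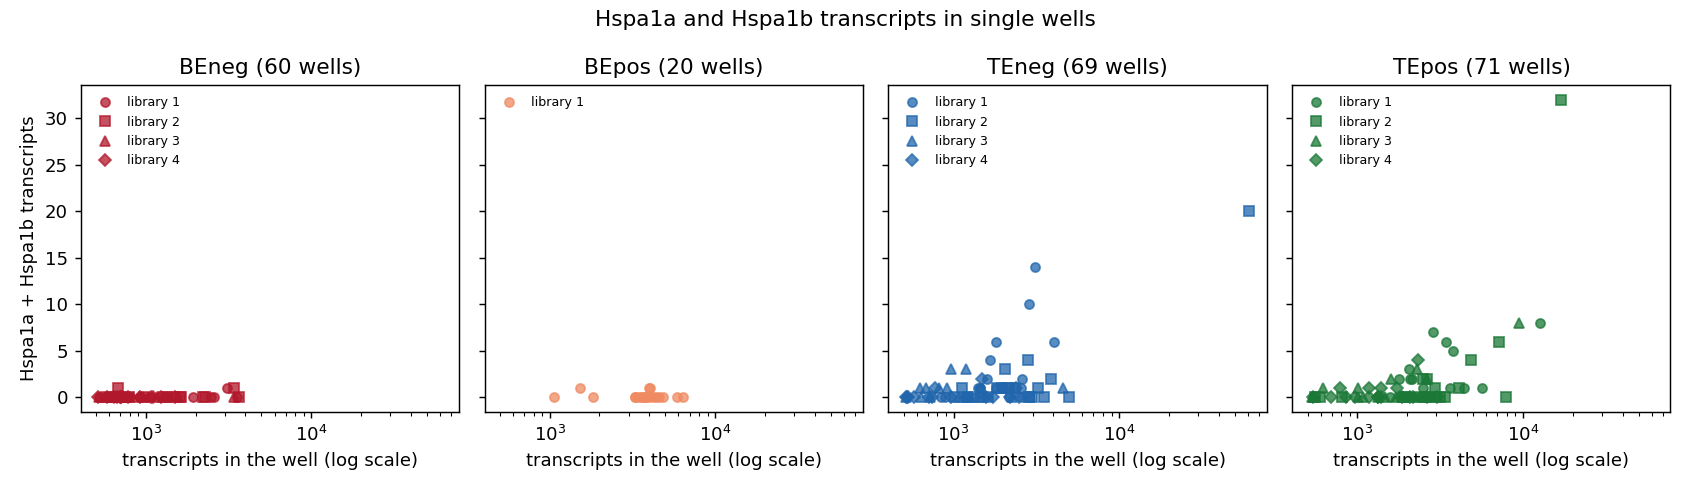
Transcripts of Hspa1a and Hspa1b together in each used well (y axis) against all transcripts of the well (x axis, log scale), a panel per population, with marker shapes for libraries. The highest well, with 32, was a TEpos well of library 2, and no BEneg or BEpos well exceeded 1.

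In experiment (i), sorted as Ecad-positive tumour cells, 95 wells of library 1 and 65 of library 2 were used, with 438102 and 69976 transcripts. No library holds wells of both experiments, so a difference between them cannot be told apart from library and depth, and the values stand side by side. The pair Hspa1a and Hspa1b was at 1.08 per 10000 in library 1 (exact Poisson 95% interval 0.788 to 1.43) and 0.860 in library 2 (0.315 to 1.87). Dnajb1 was at 0.963 and 0.716, Hspb1 at 5.85 and 4.89, and Hsp90aa1 at 6.32 and 9.34. Hspa8 was at 20.9 (19.6 to 22.3) and 22.05 (18.7 to 25.8). Hsp90ab1 was at 17.3 (16.1 to 18.6) in library 1 and 37.9 (33.4 to 42.7) in library 2, where 33 of its 265 transcripts came from 1 well. The log2 ratio of inducible to constitutive transcripts was −1.43 in library 1 and −1.92 in library 2. For Hsp90ab1 and, narrowly, Hsp90aa1 (5.60 to 7.11 in library 1 and 7.17 to 11.8 in library 2) the intervals did not overlap. They cover counting error only and not the spread among wells, and no difference between these libraries was tested. In library 1, 41 of the 277 Hsp90aa1 transcripts came from 1 well. Basal and immune marker shares of these libraries, given above, also differed, and their part was not tested.

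Hspa5 (chr2:34771970-34777547) encodes BiP, the HSP70 protein of the endoplasmic reticulum, which is known to rise when folding there is disturbed. It was at 4.91 transcripts per 10000 in library 1 of experiment (i) (exact Poisson 95% interval 4.27 to 5.61) and 6.19 in library 2 (4.45 to 8.28), and the intervals overlapped. A transcript was found in 73.7% of library 1 wells and 33.8% of library 2 wells. Thinned to 500 transcripts, the expected shares were 20.5% and 20.4%.

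Wider chaperone and stress lists were read beside the members. Summed levels of these lists are scaled by total transcripts alone. Scaled so, the median log2 fold change of all genes was −0.49 for BEneg over TEneg and −0.48 for BEneg over TEpos. A lower sum in BEneg is therefore not particular to a list, and the sums were not tested. Of 24 cytosolic heat shock and co-chaperone genes measured, none passed the low-count filter. Their summed level was 11.2 ± 3.41 per 10000 in BEneg, 19.9 ± 6.10 in TEneg and 17.2 ± 2.58 in TEpos (SD, n = 4). This list includes Hspa4, an exchange factor of HSP70, at 2.20 ± 0.801 in BEneg, 2.85 ± 0.579 in TEneg and 3.43 ± 0.744 in TEpos. Ptges3 (p23) and Fkbp4, partners of HSP90, were at 1.46 ± 0.730 and 0.409 ± 0.472 in BEneg, 3.64 ± 2.77 and 2.43 ± 1.89 in TEneg, and 2.03 ± 0.420 and 1.43 ± 0.731 in TEpos.

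In the endoplasmic reticulum list, 5 of 18 measured genes were tested. Genes of this list, too, could pass the filter through their tumour level alone. Against TEneg 4 of 5 fell in BEneg, where 17.1% of all genes did: Calr, a calcium-binding chaperone of glycoproteins (−1.41, SE 0.32, edgeR adjusted p = 0.000755), Hsp90b1, the HSP90 of that compartment (−1.59, SE 0.44, adjusted p = 0.00403), and the disulfide isomerases P4hb (−1.44, SE 0.35, adjusted p = 0.00123) and Pdia6 (−1.25, SE 0.48, adjusted p = 0.0373). Against TEpos, where 21% of all genes fell, 2 of 5 did, Calr (−1.08, edgeR adjusted p = 0.00674) and P4hb (−1.22, adjusted p = 0.00423). Atf4, a transcription factor of the stress response, was not called at 0.31 and 0.58. The list's median log2 fold change was −1.41 against TEneg and −0.90 against TEpos, and 0 of 5 were called in TEneg against TEpos. The list's summed level was 20.6 ± 2.49 per 10000 in BEneg, 46.9 ± 8.30 in TEneg and 40.6 ± 6.11 in TEpos.

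Of the 8 subunits of TRiC, the chaperonin that folds actin and tubulin, Cct4 alone passed the filter. It fell in BEneg against TEneg (−1.27, SE 0.42, edgeR adjusted p = 0.0157) and was at −0.77 against TEpos (edgeR adjusted p = 0.142). The 8 subunits summed to 9.73 ± 4.79 per 10000 in BEneg, 24.1 ± 7.64 in TEneg and 22.2 ± 3.53 in TEpos. Among 4 mitochondrial chaperones, Hspe1 was tested and not called, and their sums of 8.32 ± 4.19, 8.83 ± 1.94 and 8.19 ± 1.80 in BEneg, TEneg and TEpos overlapped.

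Immediate early genes are another group that cell handling is known to raise. Of 17 tested, 4 were lower in TEneg than in TEpos and none was higher, where 1.63% of all genes were lower and 4.69% higher. In BEneg, 4 of 17 rose and 2 fell against TEneg, where 23.9% of all genes rose and 17.1% fell, so these counts are near the background. Against TEpos 3 rose and 7 fell, where 27.1% of all genes rose and 21% fell. Mcl1, a survival factor, had a log2 fold change of 2.76 in BEneg over TEneg (SE 0.34, edgeR adjusted p = 1.79e-07), and Egr1, a transcription factor, of −2.48 (SE 0.47, adjusted p = 8.19e-05). The list's median was −0.53 for TEneg over TEpos, 0.13 for BEneg over TEneg and −0.87 for BEneg over TEpos. Their summed level was 109 ± 16.5 per 10000 in BEneg, 103 ± 43.4 in TEneg and 174 ± 28.6 in TEpos.

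The genes whose pattern over the 12 sums was most like that of the HSP70 pair, by Pearson correlation of log2 levels among 485 genes, were Trps1 (0.92), Rps7 (0.90), Atp5o (0.87), Crip2 (0.86) and Cyr61 (0.86). For Hspa8 they included Aqp5 (0.89), Sox9 (0.83), Fxyd3 (0.82) and Wbp5 (0.82). Sums of a library share preparation and depth, and these values describe 12 sums in 3 populations.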

How the data were processed

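The authors deposited estimated counts, 1 value per gene and well, without scaling between wells. BWA 0.6.2-r126 and mm10 are named in the submitters' processing notes; the sources used here do not give the counting step. With k a whole number of molecular barcodes out of 256, every value equals 256 times ln(256/(256 − k)), within 3.1e-13. Spike-ins were left out.

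In experiment (ii), wells of at least 500 transcripts were summed per library and population (at least 3 wells), and the estimated counts were rounded. By design, 72 cell barcodes recur in all 4 libraries, and the deposited barcode table ties each well to its library and population. Wells were sorted for single cells, so no doublet caller was run. The library is the replicate (n = 4). The labels do not tie libraries to separate animals, so the p-values reflect spread among libraries that may be technical. No library repeated another of its population (chi-square per degree of freedom 1.87 to 4.35).

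BEneg, TEneg and TEpos entered 1 fit in edgeR 4.0.16 (TMM, filterByExpr, quasi-likelihood; R 4.3.3), blocked by library. The pairing comes from the barcode table; residuals within a library correlated at 0.0608 to 0.351. Alternatives were DESeq2 1.42.0, limma 3.58.1 on means of wells, other scalings and filters, and left-out wells or libraries. The fit was also run on simulated counts with known changes in TEneg alone, the same spread for every gene and no library effect. That run does not cover the BEneg comparisons. Poisson and binomial 95% intervals and limits of 3 counts cover counting error only. To thin a well, the expected share with a transcript at 500 transcripts was computed.

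Members, wider lists and tests were chosen with earlier results of these data known. Genes named are the members, genes of the wider lists called in any comparison or in a complex with a member, and the 5 genes most correlated with the HSP70 pair and with Hspa8. 1 gene that this rule names is not reported here. Atf4, Hspe1 and the marker genes were named after their values were seen.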

Additional observations from a re-analysis of the deposited data

Results flagged for a closer look

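Among 26 sets of 4 libraries, 1 library lay far from the other 3 in 2 sets, and chance flags about 1 in 20. Hsp90aa1 stood apart in TEpos library 3, at 9.72 transcripts per 10000 against 6.46 to 6.96 in the others. Hspa1b stood apart in TEpos library 4, at 1.10 against 3.88 to 4.34, which rests on 3 transcripts.

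Library 3 of experiment (i) entered no comparison, since 1 of its 96 wells reached 500 transcripts. Over all 96 wells, 14046 transcripts included 5 of Dnajb1, 5 of Hsp90aa1, 18 of Hspa8 and 9 of Hsp90ab1, each above the 3 transcripts that a count of 0 allows. Hspa1a and Hspa1b had 0, and Hspb1 and Hspa5 1 each.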

How the results depend on the processing

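The calls of Hspb1 in both BEneg comparisons and of Hsp90ab1 in BEneg over TEneg held under all 15 alternatives. The HSP70 genes rest on few BEneg transcripts, which limits their precision, and the cause of the changes below was not tested. The number of members called, 4 in each BEneg comparison, was 2 in each with wells of at least 1000 transcripts (where Hspa1b was not tested), and 2 to 4 in each when a library was left out. Against TEpos, 5 members were called by means of wells (Hspa8 at −0.69, adjusted p = 0.0164), and 6 of 7 without a filter on low counts (Hspa8 at −0.66, adjusted p = 0.0498), where 5 of 7 were called against TEneg. All genes tested numbered 375 with wells of at least 1000 transcripts, 490 by means of wells and 11429 without a filter. The genes called among them are given below, and the member counts describe the members only. Without the library block (pairing), 20 genes were called in TEneg over TEpos, 187 in BEneg over TEneg and 213 in BEneg over TEpos, and of the members Hsp90aa1 was no longer called against TEpos; DESeq2 also missed it there (adjusted p = 0.0609).

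Genes called in TEneg over TEpos, 31 in the main result, were 99 with no filter on low counts, 17 with wells of at least 1000 transcripts, 55 without the large TEneg well, 13 without TEneg wells high in other cell types, 19 by means of wells and 19 to 42 with a library left out. In BEneg over TEneg the count of 201 was 461 with no filter and 111 with wells of at least 1000 transcripts, and in BEneg over TEpos 236 was 581 and 125. By means of wells, 107 were higher and 153 lower in BEneg over TEneg, and 110 and 192 in BEneg over TEpos.

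For TEneg over TEpos, uncalled log2 fold changes changed sign. Hspa1b was −0.059 with no filter and −0.17 to 0.80 with a library left out. Hsp90aa1 was −0.15 with no filter and −0.00165 to 0.37 with a library left out. Hspa8 was 0.025 scaled by total transcripts, 0.037 with wells of at least 1000 transcripts, 0.000784 with every well and −0.10 to 0.043 with a library left out. The log2 ratio of inducible to constitutive transcripts was −3.57 in BEneg, −2.28 in TEneg and −1.76 in TEpos with Hsp90aa1 counted as constitutive, and −2.75, −1.71 and −1.77 with Hspb1 left out. BEneg ratios also overlapped those of TEneg with wells of at least 1000 transcripts, with every well, by means of wells and without TEneg wells high in other cell types.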
